A study of Mus musculus with 6 samples.

Results

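The IL-20 subfamily of cytokines and its receptor chains were followed in mouse gingiva, the mucosa around the teeth, with and without plasminogen. The set held 8 genes chosen by symbol from the 48709 genes counted: the cytokine genes Il19, Il20, Il24 and Il22 and the receptor genes Il20ra, Il20rb, Il22ra1 and Il10rb. Tissue came from C57BL/6 mice aged 12 weeks. The 3 Plg KO libraries were from mice deficient in Plg, which encodes the precursor of the fibrin-dissolving protease plasmin, and the 3 Plg WT libraries from wild-type littermates. The series names fibrin and neutrophil function at mucosal barriers as its subject, and here the question was whether this cytokine subfamily or its receptors differed between the genotypes.

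IL-19, IL-20 and IL-24 are relatives of IL-10 that leukocytes and epithelial cells make and that act mainly on epithelium. Their type I receptor pairs the Il20ra chain with the Il20rb chain, and IL-20 and IL-24 also use a type II receptor of Il22ra1 with Il20rb. IL-22, made mostly by T cells and innate lymphoid cells, signals through Il22ra1 with Il10rb, a chain that IL-10 and the lambda interferons share. These receptors act through Jak kinases and the factor Stat3, and in skin they are known for driving keratinocyte growth, antimicrobial proteins and wound responses.

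Total gene counts ran from 26183389 to 36429150 per library. By the Y-linked transcript Ddx3y, Plg WT 3 and Plg KO 1 were male and the other libraries female. Plg had 2 counts in each group, a level that gives no check of the genotype labels. Whether each library is its own mouse is not in the labels. Both sexes occur in each group, so a group's libraries are not all from 1 mouse, and libraries of a group differed by a chi-square of 21.4 to 102 per degree of freedom. The p-values speak of this spread, which may be technical in part for libraries of the same sex. The epithelial markers of the labelled mucosa were abundant, with a summed level of 6 basal keratinocyte markers of 15858.1 to 19311.2 CPM, the count scaled to a common library size by the TMM method. Skeletal muscle markers were also present, at 2216.8 to 10186.1 CPM.

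Il24 was the cytokine of the set with by far the most counts in gingiva without Plg, and hardly any was found in wild-type gingiva. Its counts summed to 104 over the Plg KO libraries and 4 over the Plg WT libraries. Il20ra, the chain specific to the type I receptor, had 45 counts in Plg KO and 12 in Plg WT. The shared chain Il20rb was slightly lower in each Plg KO library than in each Plg WT library, and Il22ra1 and Il10rb had higher means in Plg KO. None of these differences passed the test across all genes. The quasi-likelihood test of edgeR, Benjamini-Hochberg adjusted over 17757 genes, gave 0 of the 5 testable members an adjusted p under 0.05, against 0.237% of all genes (0.191% with Plg KO higher, 0.0451% with Plg KO lower). EdgeR gave 3 members an unadjusted p under 0.05, against 9.25% of all genes. Of these 2 were higher in Plg KO, against 4.97% of all genes, and 1 was lower, against 4.27%. Il24 was the 1 member called by DESeq2, against 2.36% of all genes, and by edgeR with no filter on low counts, against 0.51%, and limma-voom called 0, against 0.231%. The groups did not overlap in 4 of the 5, which held for 14.7% of all tested genes (7.51% with Plg KO above and 7.18% with Plg KO below). Among the 4, Il22ra1 was only just apart, and its groups overlapped on the authors' deposited CPM. Il24 and Il20ra passed the filter on low counts through their Plg KO libraries alone and had to differ between the groups to be tested.

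**Figure D1:**
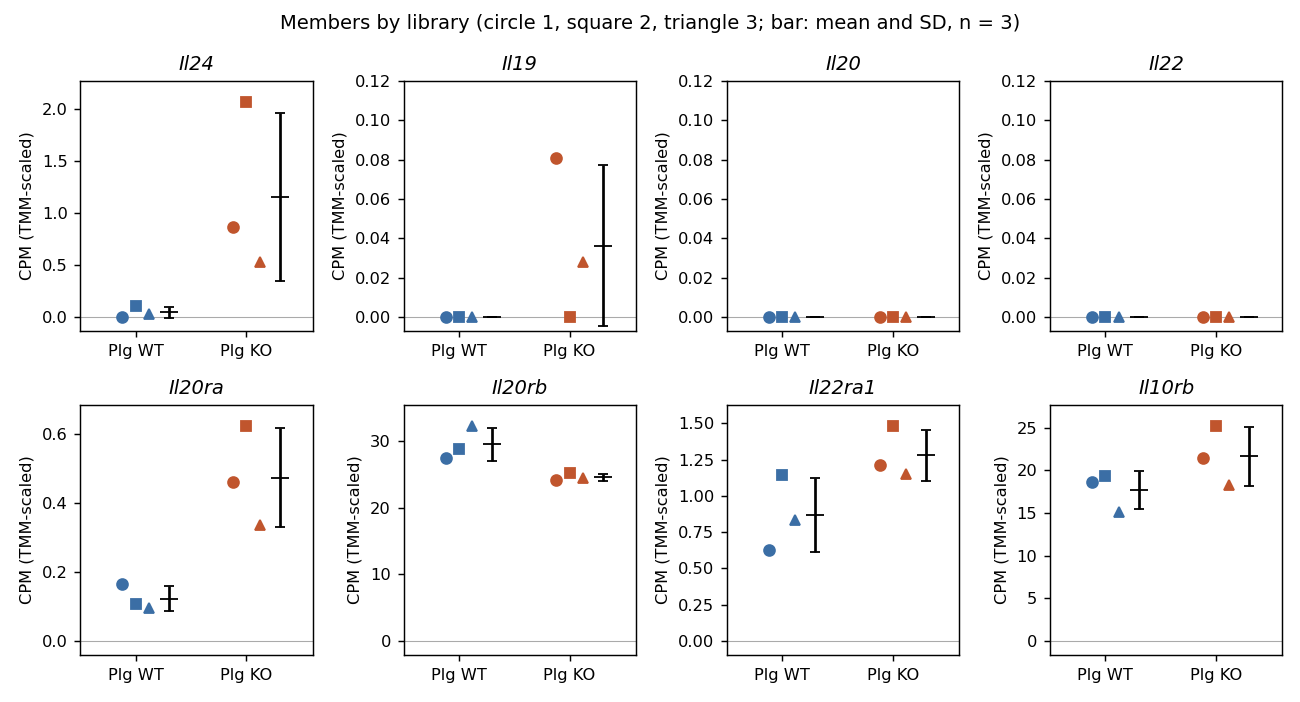
Levels of the 8 genes in CPM (TMM-scaled) in each library, with a panel and a scale of its own for each gene; circles, squares and triangles are libraries 1, 2 and 3 of each group, and bars show the mean and SD (n = 3). Il24 lies at 0.532 to 2.06 CPM in Plg KO and at no more than 0.107 CPM in Plg WT, while Il20 and Il22 are at 0 in all 6 libraries.

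The start regions of the pair of type I receptor chains are shown because these chains lay on opposite sides of the wild-type level. They are RefSeq windows on GRCm38.p6 from 250 bases before to 50 after the transcription start, 5′ to 3′ on the gene's strand. Capitals mark a match to the AP-1 motif TGAGTCA, searched on both strands with the STAT motif TTCNNNGAA.
Il20ra, chr10:19712337-19712636, plus strand: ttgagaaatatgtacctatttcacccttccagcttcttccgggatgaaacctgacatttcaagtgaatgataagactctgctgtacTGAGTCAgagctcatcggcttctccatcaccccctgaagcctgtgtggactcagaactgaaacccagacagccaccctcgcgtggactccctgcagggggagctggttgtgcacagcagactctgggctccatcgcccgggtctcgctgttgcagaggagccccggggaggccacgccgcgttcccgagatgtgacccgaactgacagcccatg
Il20rb, chr9:100486424-100486723, minus strand: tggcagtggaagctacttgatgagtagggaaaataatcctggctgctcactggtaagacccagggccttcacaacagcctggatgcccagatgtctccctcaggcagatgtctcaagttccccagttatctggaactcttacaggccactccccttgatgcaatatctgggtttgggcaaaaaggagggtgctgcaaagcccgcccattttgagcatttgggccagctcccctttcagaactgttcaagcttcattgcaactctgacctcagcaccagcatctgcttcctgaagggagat

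The Il20ra window held 1 AP-1 match, starting at position -164 from the transcription start, and the Il20rb window held none. Of 32851 windows of the same length, 5.2% held the AP-1 letters and 8.3% the STAT letters. The 6 members with a window were these, Il22ra1, Il19, Il20 and Il22. Il19 was the member with a STAT match, at position -225. A match is a description of the letters and not of binding.

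Il24 (ENSMUSG00000026420, GRCm38 chromosome 1, 130882074 to 130887454, minus strand) encodes a cytokine that signals through both IL-20 receptor types. Plg WT 1, 2 and 3 held 0, 3 and 1 counts of it, and Plg KO 1, 2 and 3 held 32, 53 and 19. In CPM these were 0.0, 0.107 and 0.032 against 0.864, 2.06 and 0.532. The groups did not overlap, and the lowest Plg KO library stood well above the highest Plg WT library. Plg KO 2 alone gave 51.0% of the Plg KO counts. The mean was 0.0464 ± 0.055 CPM in Plg WT against 1.15 ± 0.803 CPM in Plg KO (SD, n = 3 each).

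The log2 difference of Il24 was 4.62 ± 0.91 (SE), with an unadjusted p of 0.00122 and, in edgeR's test, adjusted p = 0.141, higher in 3 of 3 Plg KO libraries. From the summed counts alone the ratio was 25.3, with an exact 95% interval of 9.59 to 94.6 that covers counting error only. DESeq2 gave 4.72 ± 1.02 with an adjusted p of 4.65e-04, and edgeR with no filter on low counts gave 4.61 with an adjusted p of 0.0278. Over all alternatives the adjusted p ran from 4.65e-04 to 0.429. The size moved with single libraries, to 3.92 without Plg KO 2, 3.98 without Plg WT 1 and 5.94 without Plg WT 2. On the log2(CPM + 0.5) scale, which understates the change of low genes, the difference was 1.49.

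The 3 other cytokine genes were near or at 0. Il19 (chromosome 1, 130932656 to 130940115) had 0 counts in each Plg WT library and 3, 0 and 1 in Plg KO 1, 2 and 3. Its mean in Plg KO was 0.0363 ± 0.0411 CPM (SD, n = 3), and the exact two-sided permutation test over the 6 libraries gave p = 0.4, where 0.1 is the smallest p that 3 against 3 allows. Il20 (chromosome 1, 130906985 to 130911451) had 0 counts in all 6 libraries. A count of 0 over a group allows up to 3 counts, which is 0.0313 CPM in Plg WT against 0.0305 CPM in Plg KO. Reads carry no molecular identifiers, so these limits cover counting error only.

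Il22 (chromosome 10, 118204942 to 118210047), the cytokine of barrier lymphocytes, also had 0 counts in all 6 libraries. C57BL/6 mice carry a close copy of it, Iltifb, which had 1 count in Plg WT against 1 in Plg KO. Of the 37-base windows of the Il22 transcript, the length of the reads, 48.5% also stand in the Iltifb transcript, and the sources used here do not give how such reads were counted. The 0 of Il22 therefore covers reads unique to it, and its part in any shared reads was not tested. No window of Il24, Il20, Il19, Il20ra, Il20rb or Il22ra1 was shared with another gene, and no annotated gene overlapped their exons.

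The 3 genes of the IL-20 group lie side by side with Il10 on chromosome 1. Within 300 kb of the start of Il24 there were 16 protein-coding genes with a start, counting Il24, and 9 others could be tested. Their log2 differences ran from -2.11 to 0.95 and edgeR called 0 of them. Il20 starts 24.0 kb from the start of Il24 and Il19 52.7 kb, and Il10 at 132.4 kb had 11 counts in Plg WT against 19 in Plg KO. Fcmr, the receptor for IgM on B cells and the nearest gene on the other side, stood at -2.11 ± 0.70 on the log2 scale (adjusted p = 0.376 in edgeR's test), and Pigr, which carries antibodies across epithelium, 0.95 ± 0.62. Pigr had 325.2, 84.4 and 51.4 CPM in Plg WT against 248.8, 257.5 and 383.1 CPM in Plg KO. Salivary gland markers moved with Pigr, at a sum of 1473.4, 451.2 and 273.7 CPM in Plg WT against 1122.5, 1178.2 and 1545.8 CPM in Plg KO, and their part in it was not tested. The B cell and plasma cell markers were, like Fcmr, lower in Plg KO. Their sum was 70.9, 31.6 and 18.1 CPM in Plg WT against 2.94, 2.1 and 15.7 CPM in Plg KO. Fcmr had 3.22, 2.21 and 0.448 CPM against 0.351, 0.699 and 0.336 CPM, so within Plg KO the orders differed. Jchain made up 12 CPM of the sum in Plg KO 3. The part of these cells in the Fcmr difference was not tested.

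Il20ra (ENSMUSG00000020007, chromosome 10, 19712570 to 19760053, plus strand) encodes the alpha chain that makes a receptor able to bind IL-19 as well as IL-20 and IL-24. It had 6, 3 and 3 counts in Plg WT against 17, 16 and 12 in Plg KO. In CPM the Plg WT libraries had 0.164, 0.107 and 0.0961 and the Plg KO libraries 0.459, 0.622 and 0.336. The groups did not overlap, and the lowest Plg KO library was above the highest Plg WT library by more than either group's SD (0.0363 and 0.143 CPM, n = 3 each). The log2 difference was 1.88 ± 0.46 (SE), with an unadjusted p of 0.00424 and an adjusted p of 0.223 in edgeR's test. The ratio of summed counts was 3.65, with an exact 95% interval of 1.9 to 7.58 for counting error. DESeq2 gave it no adjusted p because of its low mean, and with 1 library left out its log2 difference ran from 1.65 to 2.16.

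Il20rb (ENSMUSG00000044244, chromosome 9, 100457719 to 100486788, minus strand) encodes the beta chain shared by both IL-20 receptor types. Its level was 27.5, 28.9 and 32.3 CPM in Plg WT against 24.2, 25.2 and 24.5 CPM in Plg KO. All 3 Plg KO libraries lay below all 3 Plg WT libraries, and the Plg KO libraries were close together. The means were 29.6 ± 2.47 and 24.6 ± 0.553 CPM (SD, n = 3 each). The log2 difference was -0.26 ± 0.10 with an unadjusted p of 0.0328 and an adjusted p of 0.468 in edgeR's test, and its counts, 2825 against 2421, leave little counting error (ratio 0.834, exact 95% interval 0.79 to 0.881).

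Il22ra1 (ENSMUSG00000037157, chromosome 4, 135728172 to 135752140, plus strand), which joins Il20rb in the type II receptor and Il10rb in the IL-22 receptor, had 0.628, 1.14 and 0.833 CPM in Plg WT against 1.21, 1.48 and 1.15 CPM in Plg KO. Plg WT 2 and Plg KO 3 were nearly level: on these values the groups were just apart, and on the authors' deposited CPM they overlapped. The log2 difference was 0.56 ± 0.32, adjusted p = 0.658 by edgeR. Without Plg WT 2 it was 0.81 and without Plg WT 1 0.37. At 81 counts in Plg WT against 124 in Plg KO, the ratio of 1.49 had a counting interval of 1.12 to 2.0.

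Il10rb (ENSMUSG00000022969, chromosome 16, 91406164 to 91425834, plus strand), the accessory chain of the IL-22, IL-10 and lambda interferon receptors, had 18.6, 19.3 and 15.1 CPM in Plg WT against 21.5, 25.2 and 18.3 CPM in Plg KO. The groups overlapped, since Plg KO 3 lay below Plg WT 1 and 2. The log2 difference was 0.30 ± 0.16 (adjusted p = 0.637 in edgeR's test). Of its 37-base transcript windows 14.7% also occur in other transcripts and 569 of its exon bases lie in a second annotated gene, Gm21970, which had 0 counts, so part of its reads may not be unique to it.

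**Figure D2:**
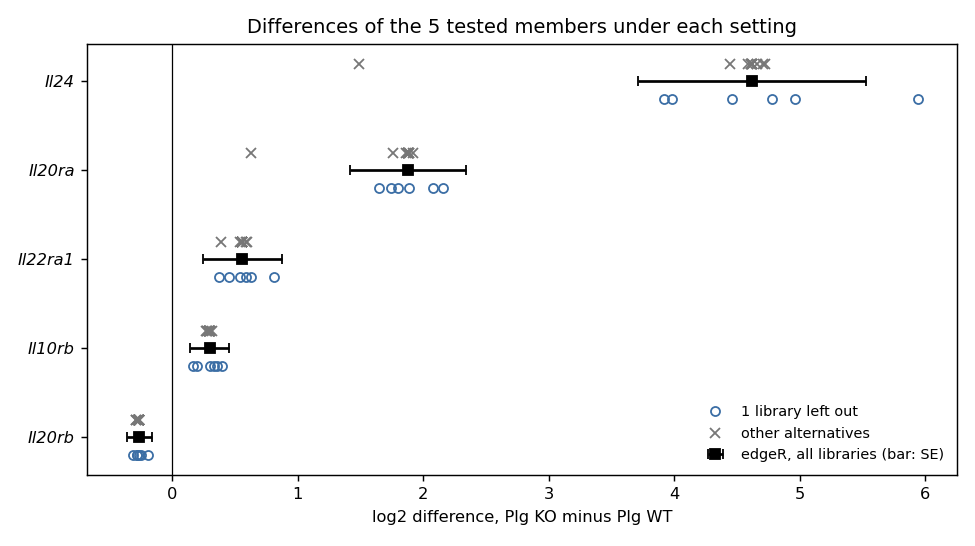
Log2 differences, Plg KO minus Plg WT, of the 5 tested genes. Squares are the edgeR values with SE, circles the fits with 1 library left out and crosses the other alternatives. Each gene keeps its side of 0, with Il24 at 4.62 and Il20rb at -0.26, and the cross at 1.49 for Il24 is the fit on log2(CPM + 0.5).

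Levels were compared between receptor chains per kilobase of exon, as CPM divided by exon length. In Plg WT the order was Il20rb at 7.03 ± 0.587 (SD, n = 3), Il10rb at 4.64 ± 0.584, Il22ra1 at 0.338 ± 0.101 and Il20ra at 0.0504 ± 0.015. Each step of this order was wider than the spread of the libraries on either side of it. In Plg KO, Il20rb at 5.86 ± 0.132 and Il10rb at 5.69 ± 0.911 could not be separated, since their libraries ran from 5.74 to 6.0 and from 4.81 to 6.63. Below them came Il22ra1 at 0.498 ± 0.0674 and Il20ra at 0.194 ± 0.059. Il24 in Plg KO, at 0.831 ± 0.579 with a range of 0.384 to 1.49, overlapped Il22ra1 and lay above Il20ra in mean and range. In Plg WT Il24 stood at 0.0335 ± 0.0397, from 4 counts in all.

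The beta chain was in excess over both of its partners in each library. Per length, Il20rb was 96.9 to 194.0 times the level of Il20ra in Plg WT and 23.5 to 42.1 times in Plg KO. Against Il22ra1 it was 15.5 to 26.7 times in Plg WT and 10.4 to 13.1 times in Plg KO. The libraries of the groups did not overlap in either ratio, which restates the differences of the single chains. The ratio to Il20ra rests on 6, 3 and 3 counts of Il20ra in the Plg WT libraries. Il20ra passed the filter on low counts through its Plg KO libraries alone. How often ratios of other gene pairs keep the groups apart was not tested. Il10rb over Il22ra1 ran from 11.4 to 19.9 in Plg WT and from 10.8 to 11.9 in Plg KO, and there the groups overlapped. These are ratios of RNA in whole tissue, in which fewer cells of a type and less RNA per cell cannot be told apart.

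**Figure D3:**
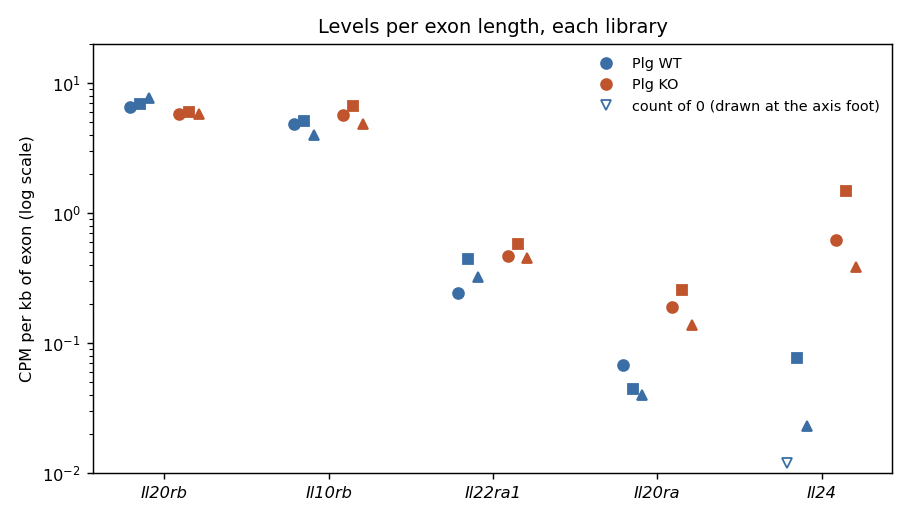
Level per kilobase of exon (CPM per kb, log scale) in each library for the 4 receptor chains and Il24, blue for Plg WT and orange for Plg KO, with the library number by marker shape (circle 1, square 2, triangle 3); an open triangle marks a count of 0. Il20ra is the lowest chain in both groups, and Il24 runs from 0.384 to 1.49 in Plg KO.

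The genes that act with or on the subfamily were read from lists of known pathway members. Of 12 relatives among class II cytokines and their receptors, 6 could be tested and edgeR called 0 (1 with an unadjusted p below 0.05, and 0 by either DESeq2 or limma-voom), with a median log2 difference of 0.10 against 0.00 for all genes. Ifngr1, the ligand-binding chain for interferon gamma and a neighbour of Il20ra on chromosome 10, had 83.9, 84.9 and 99.6 CPM in Plg WT against 116.9, 117.0 and 103.4 CPM in Plg KO, 0.33 ± 0.10 apart on the log2 scale (adjusted p = 0.358 by edgeR). Its groups did not overlap. The other interferon receptor chains were at -0.14 ± 0.12 for Ifnar1, -0.14 ± 0.13 for Ifnar2 and 0.14 ± 0.12 for Ifngr2. Il22ra2, the soluble decoy receptor that captures IL-22, had 31 counts in Plg WT against 23 in Plg KO, too few to be tested.

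The Jak and Stat genes that carry the signal were present in all libraries. Of 7 signal mediators edgeR called 0 (1 lower with unadjusted p below 0.05, and 0 by either DESeq2 or limma-voom), 6 had a negative difference and the median was -0.10. Stat3, the main factor downstream of these receptors, had 92.4, 85.3 and 99.9 CPM in Plg WT against 90.1, 114.9 and 94.2 CPM in Plg KO (log2 difference 0.11 ± 0.12). The differences were -0.31 ± 0.13 for Stat5b, -0.16 ± 0.12 for the kinase Jak1, which binds the longer receptor chains, and -0.10 ± 0.09 for Stat5a.

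Of 8 feedback inhibitors edgeR called 0 and limma-voom 0 (1 at an unadjusted p under 0.05), DESeq2 called 1, and the median was 0.03. The gene DESeq2 called was Socs3, which Stat3 induces and which blocks Jak kinases (adjusted p = 0.0237 in DESeq2, adjusted p = 0.268 in edgeR's test). Socs3 had 11, 14.2 and 8.52 CPM in Plg WT against 19.6, 31.3 and 17.2 CPM in Plg KO, groups that did not overlap, with a log2 difference of 1.01 ± 0.27. Socs1, Socs2 and Pias3 were at 0.20 ± 0.32, 0.10 ± 0.11 and -0.10 ± 0.10.

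Keratinocyte genes known to respond to IL-20 and IL-22 had a positive difference in 19 of 25 tested (76.0%), against 49.2% of all genes, with a median of 0.90. At an unadjusted p under 0.05 13 were higher, against 4.97% of all genes. This list was chosen with earlier results of these data known, so its shares beside all genes are descriptive and no test. EdgeR called 1 higher (0.191% of all genes) and 0 lower, DESeq2 called 10 and limma-voom 1. The called gene was Cxcl5, a neutrophil-attracting chemokine, which rose 5.32-fold, from 36.1, 52.6 and 27.1 CPM to 142.9, 281.6 and 191.3 CPM (log2 change 2.41 ± 0.32, adjusted p = 0.0446 in edgeR's test). Il1rn, the interleukin-1 receptor antagonist, had 191.9 to 197.5 CPM in Plg WT against 316.9 to 451.7 CPM in Plg KO (adjusted p = 0.0582). Areg, the growth factor amphiregulin, had 2.02 to 3.74 and 7.15 to 9.67 CPM (adjusted p = 0.0918). S100a9, a calprotectin subunit, had 15.8 to 34.2 and 72.2 to 237.1 CPM (adjusted p = 0.134).

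The stress keratins of this list had negative differences, -0.23 ± 0.16 for Krt6a and -0.08 ± 0.15 for Krt16. Krt6a had 3350.8 to 4066.0 CPM in Plg WT against 2649.3 to 3767.3 CPM in Plg KO, and Krt16 had 2975.0 to 3653.7 and 2769.0 to 3581.2 CPM, with overlapping groups in both. The acute-phase gene Saa3 was spread widely within Plg KO, at 4.37, 14.4 and 0.448 CPM in libraries 1, 2 and 3. Plg KO 2 was the highest and Plg KO 3 the lowest Plg KO library for Saa3, S100a9, Il24 and Il20ra. The summed neutrophil markers had the same order, at 37.9 to 77.1 CPM in Plg WT against 229.1, 509.5 and 151.6 CPM in Plg KO 1, 2 and 3. All 7 tested markers had a positive difference. Ly6g, the marker not tested, was at 0 in Plg WT 1, Plg WT 3 and Plg KO 1 and at 1.79 CPM in Plg KO 2. S100a8 and S100a9 stand among those markers and made up most of the sum. Csf3r, at 4.32, 8.04 and 6.3 CPM in Plg KO 1, 2 and 3, had its lowest Plg KO value in Plg KO 1. So did Cxcr2, Mmp8 and Retnlg, while Il1r2 was lowest in Plg KO 3, as the sum was. Il1rn also had the Plg KO order of Il24. For Cxcl5, Areg and the inducers Il1b, Osm, Il1a and Il6, Plg KO 2 was again the highest, but Plg KO 1 was the lowest. How many of all genes have the Plg KO order of Il24 was not counted. The part of neutrophils in the Il24 and Il20ra differences was not tested.

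Genes of late keratinocyte differentiation, which IL-20 and IL-22 are known to hold down in skin, had a negative difference in 13 of 17 tested, against 9024 of 17757 genes in all, with a median of -0.27. EdgeR called 0, as did DESeq2 and limma-voom, and 4 were lower with an unadjusted p below 0.05, against 4.27% of all genes. As with the list before, these shares are descriptive, since the list was chosen with earlier results known. Lor, the cornified envelope protein loricrin, had 407.9, 421.1 and 402.4 CPM in Plg WT against 317.8, 301.6 and 346.4 CPM in Plg KO, with no overlap (log2 difference -0.35 ± 0.09, adjusted p = 0.253 in edgeR's test). The late envelope genes Lce3c and Lce1a1 were at -0.27 ± 0.10 and -0.59 ± 0.24, and the keratin Krt2 at -1.87 ± 0.63 from low levels of 0.155 to 1.75 CPM. Summed markers of suprabasal keratinocytes overlapped between the groups, at 19301.9 to 25890.7 CPM in Plg WT against 20746.7 to 29230.6 CPM in Plg KO. Most of that sum was Krt4 and Krt13, and 2 of the 6 markers had a positive difference, with a median of -0.17.

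Cytokines and receptors known to induce the subfamily had a positive difference in 16 of 17 tested (94.1%), against 49.2% of all genes, with a median of 0.49. At an unadjusted p under 0.05 10 were higher, against 4.97% of all genes. The inducer list too was chosen with earlier results of these data known, so its shares are descriptive and no test. EdgeR called 2 higher (0.191% of all genes) and 0 lower, DESeq2 called 5 and limma-voom 1. Il1b, a myeloid cytokine that induces Il24 and Il19 in epithelium, rose from 1.09, 2.32 and 1.76 CPM to 9.07, 16 and 12.1 CPM (log2 change 2.85 ± 0.33, adjusted p = 0.0252 in edgeR's test). Osm, oncostatin M, rose from 0.273, 0.25 and 0.32 CPM to 1.48, 3.3 and 2.16 CPM (log2 change 3.01 ± 0.39, adjusted p = 0.0446). Il1a had 3.27 to 4.2 and 7.29 to 14.2 CPM (adjusted p = 0.0954), and Il6 had 0.0819, 0 and 0.224 CPM in Plg WT against 0.567, 1.51 and 0.812 CPM in Plg KO (adjusted p = 0.234). The calls of Cxcl5, Il1b and Osm were each lost when Plg WT 2, Plg WT 3, Plg KO 2 or Plg KO 3 was left out, with adjusted p values of 0.0926 to 0.266. The call of Osm was also lost with limma-voom (adjusted p = 0.105) and with limma-trend on the deposited CPM (adjusted p = 0.0508), and that of Cxcl5 with upper-quartile factors in edgeR (adjusted p = 0.0507).

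**Figure D4:**
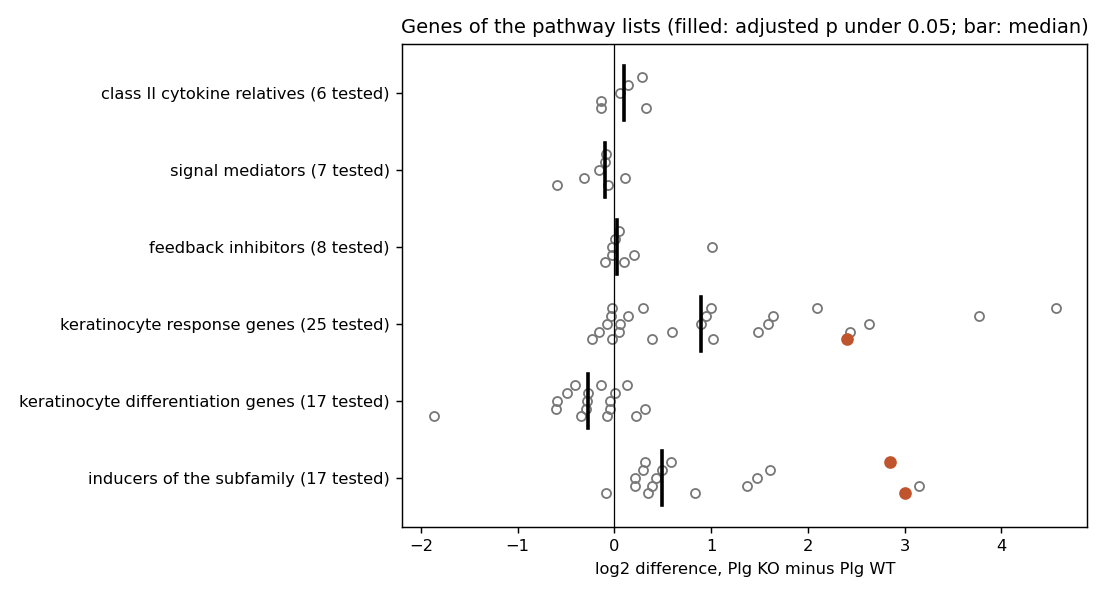
Log2 differences, Plg KO minus Plg WT, of the tested genes in 6 pathway lists; each point is a gene, filled where the adjusted p is under 0.05, and the bar is the list's median. The keratinocyte response list (median 0.90) and the inducer list (median 0.49) lie to the right of 0, and the signal mediators (median -0.10) near it.

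For the lymphocytes that make IL-22, summed markers overlapped between the groups. The 12 markers of T cells and innate lymphoid cells had 101.5 to 123.1 CPM in Plg WT against 102.8 to 110.6 CPM in Plg KO, and 3 of 11 tested had a positive difference. Il17a, which the same cells make, had 0 counts in each group, and Il17f, too low to be tested, had 0.0819, 0.0357 and 0.0641 CPM in Plg WT against 0.243, 1.17 and 0.028 CPM in Plg KO. The Il17f groups overlapped, since Plg KO 2 held most of its counts and Plg KO 3 lay below each Plg WT library. Monocyte and macrophage markers, from cells that can make IL-19, IL-20 and IL-24, had 111.9 to 149.8 CPM in Plg WT against 133.3 to 204.5 CPM in Plg KO, ranges that overlap. Most of that sum was Lyz2 (79.4 to 154.6 CPM), and 7 of the 8 markers had a positive difference, 1 of them, Cd14, at an unadjusted p under 0.05 (log2 difference 1.42).

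Neighbours of the members on their chromosomes were split evenly by sign. Of 29 tested, edgeR called 0 (2 higher and 2 lower with unadjusted p below 0.05, and 0 by either DESeq2 or limma-voom), 15 had a positive and 14 a negative difference, and the median was 0.01. The kinase Map3k5, near Il20ra, was at 0.44 ± 0.18 and the purine enzyme Gart, near Il10rb, at -0.29 ± 0.10.

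The genes most like each member over the 6 libraries were found by Pearson's r of log2(CPM + 0.5) among 13126 genes whose mean CPM reached 1. Closest to Il24 were Sec14l2 (r = 0.995), the thymidylate synthase Tyms (r = 0.994) and Mms22l (r = 0.992), the latter pair both active in DNA replication. Tyms had 76.5, 77.8 and 78.5 CPM in Plg WT against 92.3, 106.2 and 89.9 CPM in Plg KO, and like Il24 it was highest in Plg KO 2. On this scale the Plg WT values of Il24, all near 0, lie close together because of the added 0.5. Closest to Il20ra were Sema4d (r = 0.999), Txnrd1 (r = 0.994) and Ppef2 (r = 0.991). Sema4d had 30.1, 28.5 and 27.9 CPM in Plg WT against 36.6, 40.7 and 34.3 CPM in Plg KO.

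For Il20rb the closest genes were the retinoid receptor Rxra (r = 0.995), Ctla2b (r = 0.993) and Ddit4 (r = 0.985). Rxra had 37.5, 38.1 and 41.6 CPM in Plg WT against 33.7, 35.2 and 34.1 CPM in Plg KO, highest in Plg WT 3 as Il20rb was. For Il22ra1 they were Cenpu (r = 0.980), Pld3 (r = 0.978) and Stx19 (r = 0.974), and for Il10rb Plekha7 (r = 0.989), Arf1 (r = 0.988) and Siah1b (r = 0.980). With 6 libraries such values are common: r was over 0.9 for 248 genes with Il24, 298 with Il20ra and 178 with Il20rb. They describe these libraries, and the points share the split into 2 genotypes.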

How the data were processed

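Gingival RNA libraries (3 Plg WT, 3 Plg KO) were made with the Nextera XT kit, which does not mark strand, and read as 37-base pairs, per the labels' protocols. The builds GRCm38.p3 and mm10 and the tools DESeq2, limma, edgeR and STAR 2.5.2a are listed, without role or order, per the submitters' processing notes. The sources used here do not give which tool counted reads or on which annotation. Raw counts per gene were used as deposited, and 22 entries that name no gene (at most 3.55e-05% of a library) were left out. The authors' deposited CPM values, TMM-scaled, cover 21948 genes with a count above 5 in a library. They were whole reads for 100% of values within 0.01 reads or 0.01 times the value, whichever was larger. High values always pass this tolerance. The whole reads recovered from them equalled the raw counts for 100% of values. The count test on those reads called 42 genes, as on the raw counts.

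Of the members, 5 were named by the deposited CPM table and 3 by GENCODE M21, and positions and exon lengths came from GENCODE M21 (GRCm38). The test was edgeR 4.0.16 (R 4.3.3): quasi-likelihood F test, TMM, filterByExpr (17757 genes), genotype as the design and Benjamini-Hochberg adjustment, called at an adjusted p under 0.05. CPM in the text uses this fit's library sizes. The SE is the log2 difference divided by the square root of F. At the depths here 3 counts equal 0.081 to 0.117 CPM in a library. The scripts were tested on simulated data.

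Alternatives were DESeq2 1.42.0, limma-voom and limma-trend (limma 3.58.1), other factors, other filters, the replicate number as a block, thinning to 26183389 counts, an adjusted p under 0.10 and leaving out each library. A sex term and the recovered reads were added after seeing the data. Genes named were the members, Plg, the 4 members of each list with the smallest p and the 3 genes most like each tested member. A gene that this rule names is not reported here. Stat3, Krt6a, Krt16, Saa3, S100a8, Pigr, Il10, Il22ra2, Iltifb, Il17a, Il17f, Ly6g, Lyz2 and Cd14 were named after their values were seen. So were Krt4, Krt13, Cxcr2, Csf3r, Mmp8, Retnlg, Il1r2 and Jchain. The members and lists were chosen with earlier results of these data known.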

Additional observations from a re-analysis of the deposited data

How the results depend on the processing

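The 5 tested members kept their direction under every alternative in which they could be fitted; Il24 and Il20ra fall below the filter of at least 1 CPM in at least 3 libraries, and Il20ra also after thinning. The number of members called higher was 0 in the edgeR test, 1 with DESeq2, 1 with no filter and 0 in each fit that left out 1 library, and 0 were called lower. For genes of the pathway lists, 3 were called higher in the edgeR test, 16 with DESeq2, 9 with no filter, 6 at an adjusted p under 0.10, 6 with the sex term, 2 each with limma-voom, limma-trend and upper-quartile factors, and 0 to 5 when 1 library was left out, with 5 only without Plg WT 1. Over all genes, 34 higher and 8 lower became 275 and 128 with DESeq2, 122 and 40 with no filter, 95 and 26 at an adjusted p under 0.10, 54 and 11 with the sex term, and 1 to 184 and 1 to 35 with 1 library left out, both highest without Plg WT 1. The cause was not tested. Same-numbered libraries share only a number: their deviations correlated at -0.32, -0.04 and -0.29, and none correlated best with its own number. With the replicate block 0 members, 0 list genes and 2 genes in all were called higher and 0 lower. Depth limits Il24, Il20ra, Il19, Il20 and Il22, whose levels rest on few counts.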
